A study of Mus musculus with 6 samples.

Results

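The clustered protocadherins of mouse chromosome 18 were described here as the probes of a DNA methylation tiling array that lie in the window from 36.95 to 38.05 Mb of the mm9 build. The window held 490 of the array's 174638 probes, of which 121 lay in the Pcdha interval (37.0 to 37.36 Mb), 171 in the Pcdhb interval (37.4 to 37.7 Mb), 177 in the Pcdhg interval (37.8 to 38.0 Mb) and 21 outside all of these. Runs of 3 or more probes with starts at most 500 bp apart gave 63 member regions of 22574 on the array: 15 in Pcdha, 22 in Pcdhb, 23 in Pcdhg and 3 outside. The rule selects by position alone. DNA came from hypothalamic tissue of offspring aged 16 weeks. One group of 3 arrays had dams treated with inulin, a fermentable plant fibre, and the other group of 3 had obese dams, which the labels also describe by a maternal high fat diet. The labels do not give the sex or litter of the offspring, or the diet on which the inulin dams were kept. On each array the DNA pulled down with an antibody against methylated cytosine (MeDIP) was labelled in Cy5 and the input DNA of the same sample in Cy3. The value of a probe is log2 of MeDIP over input signal, with each array's median set to 0. A value below 0 therefore means a lower ratio of MeDIP to input than at the array's middle probe. The value of a region is the mean of its probes.

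Protocadherins are cell surface adhesion proteins of the cadherin family. In the clusters named alpha (Pcdha) and gamma (Pcdhg), each variable exon has its own promoter and is spliced to constant exons shared by the whole cluster, whereas the beta genes (Pcdhb) consist of unsplit coding exons. A neuron uses a small, largely random choice of these promoters, and the resulting mix of surface proteins lets its branches recognise and avoid each other. Methylation of the variable promoters is known to accompany their silencing, and the chromatin factor CTCF binds many of them. In the RefSeq table for GRCm38.p6, which was used for names only, the chromosome carries 14 Pcdha, 22 Pcdhb and 22 Pcdhg genes. Probes carry mm9 positions but no gene names, and no mm9 annotation was used here, so the regions are numbered 1 to 63 from the low-coordinate end and placed by position. Which promoter or exon each one overlaps was not analysed here.

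Between 94.4% and 96.4% of the probes of an array had input signal well above background, and 77.3% to 85.7% had MeDIP signal well above it. The scans separated the groups. Arrays that share a scan time in their file headers are called a scan batch here. Which arrays shared a physical slide was not read, so a scan batch need not be a slide. Scan batch 1 held every inulin array, scan batch 2 held obesity arrays 1 and 3, and scan batch 3 held obesity array 2. Scan batch and group therefore cannot be told apart in any difference below. The spread of ratios also differed: the interquartile range over all probes was 1.37 to 1.39 on the inulin arrays and 1.62 to 1.89 on the obesity arrays. Tissue was profiled in bulk, so a change of methylation within cells and a change in the mix of cells cannot be told apart. The labels do not say that the samples of a group came from separate litters, so p-values measure only the spread between these samples. A DNA array carries no expression markers against which the tissue label could be checked.

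The protocadherin regions had low MeDIP over input ratios. The median over the 63 regions was -0.65, against -0.055 over all regions of the array. It was -0.37 in Pcdha, -0.77 in Pcdhb and -0.63 in Pcdhg. The ratio was below 0 on all 6 arrays at 51 of 63 member regions, against 42.9% of all regions. It was above 0 on all 6 arrays at 3, against 35.4%. Those 3 lie together at the start of the gamma interval: region 40 (chr18:37797880-37799058), which falls just outside it at a mean of 0.43, region 41 (chr18:37803359-37804916) at 0.40 and region 44 (chr18:37832702-37834463) at 0.16. Regions 40 and 41 follow each other directly, while regions 42 and 43, with means of -0.85 and -0.26, lie between 41 and 44. Of 5 equal sets of the array's regions ordered by mean ratio, the lowest held 33 of the 63 members and the highest 2.

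In Pcdha the ratio was highest at region 8 (chr18:37118794-37120580, mean 0.082) and region 5 (chr18:37097752-37099203, -0.083). It was lowest at region 10 (chr18:37132278-37133990, -1.11) and region 12 (chr18:37156363-37157916, -0.84). In Pcdhb every region had a mean below 0, from -0.085 at region 34 (chr18:37643413-37644995) and -0.23 at region 18 (chr18:37423352-37424988) down to -1.50 at region 29 (chr18:37593980-37595709) and -2.20 at region 27 (chr18:37570190-37571637). Region 27 had the lowest mean of all members. Only 16.7% of its MeDIP values but 100% of its input values were well above background, so its ratio sets mostly dim MeDIP signal against measured input. The lowest Pcdhg means belonged to region 49 (chr18:37865637-37867274, -1.35) and region 42 (chr18:37820307-37822048, -0.85). Over the 63 regions the ratios of arrays of the same group correlated at 0.85 to 0.96 (Pearson's r, 6 pairs) and those of arrays of different groups at 0.76 to 0.89 (9 pairs), which describes how far the arrays share one pattern along the cluster. Neighbouring regions resembled each other little, with r = 0.18 over 62 adjacent pairs.

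The ratio also changed within the regions. Probes were sorted by distance from the high-coordinate end of their region, which is the downstream side, because the protocadherin genes are transcribed toward higher coordinates. In Pcdha the mean ratio was 0.55 over the last 400 bp, -0.062 at 400 to 800 bp, -0.92 at 800 to 1200 bp and -1.11 beyond 1200 bp. In Pcdhg the same bins gave 0.39, -0.44, -1.25 and -0.76. In Pcdhb they gave -0.55, -0.57, -1.14 and -1.12. The last 400 bp thus stood above 0 in Pcdha and Pcdhg on all 6 arrays, and below 0 in Pcdhb on all 6. Probe design changed along the same axis: the share of 60 bp probes, the longest on the array, was 3.36% in the last 400 bp and 51.7% beyond 1200 bp, and the share of MeDIP values well above background was 84.6% and 46.9%. With the 60 bp probes left out, the means over all the intervals were 0.11, -0.16, -0.92 and -0.91 in the same order. The fall toward lower coordinates was there in these probes too, but they still differed in length. The median ratio of member probes was 0.11 at 45 to 49 bp and -0.86 at 50 to 59 bp. Leaving out the longest probes thus does not separate position from probe length, and their parts in the fall were not tested.

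The difference between the groups ran along the regions as well. From the last 400 bp to beyond 1200 bp, inulin minus obesity was 0.022, 0.26, 0.51 and 0.53 in Pcdha, 0.041, 0.16, 0.29 and 0.27 in Pcdhb and -0.19, 0.24, 0.44 and 0.34 in Pcdhg. It was thus smallest at the downstream end, where the ratio was highest. In the last 400 bp the mean ratio of Pcdha was 0.75, 0.65 and 0.31 on the inulin arrays and 0.51, 0.71 and 0.38 on the obesity arrays, with overlapping groups. In Pcdhg it was 0.42, 0.27 and 0.22 on the inulin arrays and 0.47, 0.51 and 0.45 on the obesity arrays, and here each obesity array lay above each inulin array, opposite to the bins further upstream. In Pcdhb it was -0.44, -0.64 and -0.50 on the inulin arrays and -0.52, -0.61 and -0.57 on the obesity arrays, again with overlap. Over the probes under 60 bp the differences of all intervals were -0.048, 0.050, 0.22 and 0.12, in the same order.

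The step from the bin beyond 1200 bp to the last 400 bp was larger on every obesity array than on any inulin array. In Pcdha it was 1.59, 1.58 and 1.08 on the inulin arrays and 1.79, 2.21 and 1.73 on the obesity arrays. In Pcdhb it was 0.48, 0.45 and 0.40 on the inulin arrays and 0.65, 0.81 and 0.66 on the obesity arrays. In Pcdhg it was 0.95, 0.96 and 0.77 on the inulin arrays and 1.30, 1.65 and 1.29 on the obesity arrays. The groups differed by -0.49 in Pcdha, -0.26 in Pcdhb and -0.52 in Pcdhg, inulin minus obesity, each with p = 0.1 by a two-sided exact permutation test, the smallest p that 3 against 3 arrays allow. The obesity arrays had the wider spread of ratios over all probes. With the arrays put on an equal scale the differences were -0.12 (p = 0.8), -0.13 (p = 0.1) and -0.26 (p = 0.1) by the same exact test, and in Pcdha the groups then overlapped.

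The main comparison asked where along the cluster the ratio differed between the groups of offspring. Each region was tested with limma and p-values were adjusted over all regions of the array (Benjamini-Hochberg). By this test 14 of the 63 member regions (22.2%) passed the adjusted threshold of 0.05 and are named called regions here, and in all 14 the inulin ratio was the higher one. Over the array 7.42% of regions passed in either direction and 5.61% with a higher ratio in the inulin group. Of the 14, 6 were among the 15 Pcdha regions, 3 among the 22 Pcdhb regions, 5 among the 23 Pcdhg regions and 0 among the 3 outside, of which 0 also had an unadjusted p under 0.05. The difference was above 0 at 52 of 63 member regions, against 57.3% of all regions, and its median was 0.23 against 0.033. The median was 0.31 in Pcdha, 0.17 in Pcdhb and 0.17 in Pcdhg. Both depended on the scale of the arrays. On an equal scale 38 members were above 0 (array 54.5%) with a median of 0.068, after quantile normalization 36 (49.8%) with 0.080, and 37 by the deposited values (47.5%) with 0.056. At an unadjusted p under 0.05 there were 28 member regions, or 44.4%, against 28.6% of the array. The groups did not overlap at 24 member regions (38.1%, array 35.0%), of which 23 were higher in the inulin group (array 20.8% of regions in that direction). Member regions also varied more between arrays of a group: the median SD in the inulin group was 0.13 against 0.077 over all regions, and in the obesity group 0.14 against 0.11. The calls rest on few arrays. Leaving out any inulin array left 0 member regions past the threshold by limma (19, 28 and 27 at an unadjusted p under 0.05 without array 1, 2 and 3), and leaving out obesity array 1, 2 or 3 left 9, 12 and 6. With scan batch as a random block 0 passed, with 20 at an unadjusted p under 0.05. Without an inulin array, and with the scan batch block, 0 of all regions of the array passed too.

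How many member regions passed depended on the processing, and each count is given beside the share of all regions that passed in the same way. With normexp background correction 10 members passed (array 8.51%), with loess 9 (12.4%), on an equal scale 9 (4.04%), after quantile normalization 6 (2.20%), and 2 by the values the authors deposited (2.58%). With probes limited to those of input signal above background 7 passed (5.73%), and with both channels above background 3 of 50 (6.50%), 2 higher and 1 lower. Region gaps of 300 and 1000 bp gave 11 (6.51%) and 14 (7.85%), and the median of the probes in place of the mean gave 6 (3.25%). Without obesity array 1, 2 or 3 the counts were 9 (4.22%), 12 (9.62%) and 6 (2.80%). The members' share was close to that of the array with loess, with the authors' values and with both channels above background, and above it under the other settings of this paragraph.

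The Pcdha interval held the largest differences. Region 9 (chr18:37126197-37127847, 8 probes) had ratios of -0.011, 0.070 and 0.083 on inulin arrays 1, 2 and 3 and -0.65, -1.22 and -0.90 on obesity arrays 1, 2 and 3. Every inulin array was near 0 and every obesity array well below it, a difference of 0.97 ± 0.13 (standard error, adjusted p = 0.0146 by limma). Region 13 (chr18:37163674-37165273, 8 probes) had 0.0085, 0.17 and 0.21 on inulin arrays 1, 2 and 3 and -0.62, -0.78 and -0.58 on obesity arrays 1, 2 and 3. The groups did not overlap, and the fitted difference was 0.79 ± 0.087 (standard error, adjusted p = 0.0137 by limma). That value includes probes that were not well above background in either channel, so its size is not a measured one. Only 29.2% of the MeDIP and 75% of the input values of region 9 were well above background, and 37.5% and 47.9% of those of region 13. Inulin minus obesity was 0.39 in MeDIP and -0.56 in input at region 9, and 0.26 in MeDIP and -0.51 in input at region 13, so at both the input channel differed more than the MeDIP channel. Over the probes of region 13 measured in both channels on all arrays the difference was 0.16 (adjusted p = 0.340 by limma). With the 60 bp probes left out it was -0.040 (adjusted p = 0.881) at region 9 and 0.16 (adjusted p = 0.377) at region 13.

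The other called Pcdha regions had smaller differences and more MeDIP values above background. Region 7 (chr18:37111043-37112841) had 0.029, -0.11 and 0.076 across the inulin arrays against -0.28, -0.47 and -0.43 across the obesity arrays. The groups did not overlap, and the difference was 0.39 ± 0.084 (standard error, adjusted p = 0.0307 by limma). Region 6 (chr18:37104564-37106350) had -0.095, -0.0072 and -0.13 across the inulin arrays against -0.45, -0.38 and -0.39 across the obesity arrays, and every obesity array lay below every inulin array by more than the spread within either group. The difference there was 0.33 ± 0.071 (standard error, adjusted p = 0.0319 by limma). Region 16 (chr18:37248552-37250239) stands apart from the dense run of Pcdha regions, and 88.9% of its MeDIP values were well above background. Its ratios were -0.18, -0.29 and -0.19 across the inulin arrays against -0.48, -0.59 and -0.51 across the obesity arrays, with a difference of 0.31 ± 0.072 (standard error, adjusted p = 0.0387 by limma). Region 8 (chr18:37118794-37120580), the Pcdha region of highest ratio, had 0.24, 0.26 and 0.16 across the inulin arrays against 0.0021, -0.053 and -0.12 across the obesity arrays. Its difference of 0.28 ± 0.072 (standard error, adjusted p = 0.0494 by limma) lay just inside the threshold. None of these 4 passed when only probes well above background in both channels on all arrays were kept: the differences were then 0.26 at region 7, 0.0091 at region 6, 0.14 at region 16 and 0.15 at region 8. Region 5 (chr18:37097752-37099203) was next to these and did not pass, with a difference of 0.26 ± 0.089 (standard error, adjusted p = 0.0945 by limma). It passed over the probes with input above background on all arrays, at 0.32 (adjusted p = 0.0436). The 2 Pcdha regions of lowest ratio did not pass either: region 10 differed by 0.47 ± 0.20 (standard error, adjusted p = 0.166 by limma) and region 12 by 0.35 ± 0.14 (standard error, adjusted p = 0.132 by limma). At the other end, the lowest Pcdha differences were -0.022 at region 14 (chr18:37169216-37170975) and 0.0096 at region 17 (chr18:37302413-37303991), the last Pcdha region. At both, the arrays of the groups overlapped. Over all intervals, the 49 member regions that did not pass had differences from -0.14 to 0.47.

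In Pcdhb, 3 regions passed. Region 27 (chr18:37570190-37571637, 7 probes), the region of lowest ratio, had -1.92, -2.05 and -1.73 on inulin arrays 1, 2 and 3 and -2.32, -2.63 and -2.56 on obesity arrays 1, 2 and 3. The groups did not overlap at a level far below the array's middle, and the difference was 0.60 ± 0.11 (standard error, adjusted p = 0.0220 by limma). The channels differed by 0.24 in MeDIP and -0.35 in input. On an equal scale the ratio differed by 0.12 (adjusted p = 0.481), after quantile normalization by 0.19 and in the authors' deposited table by 0.060. Region 32 (chr18:37632561-37633694, 5 probes) had -0.19, -0.19 and -0.035 across the inulin arrays against -0.54, -0.89 and -0.60 across the obesity arrays, with a difference of 0.54 ± 0.10 (standard error, adjusted p = 0.0246 by limma). Region 23 (chr18:37492419-37494150, 8 probes) had -0.32, -0.42 and -0.59 across the inulin arrays against -0.95, -1.03 and -0.91 across the obesity arrays, and a difference of 0.52 ± 0.086 (standard error, adjusted p = 0.0197 by limma). At both, each obesity array lay below each inulin array. Region 32 differed by 0.16 in MeDIP and -0.36 in input, and its ratio by 0.11 (adjusted p = 0.444) over probes measured in both channels on all arrays. Region 23 was the one member called when the MeDIP channel was tested on its own, where inulin exceeded obesity by 1.02 (adjusted p = 0.0335 by limma). Its input signal was also higher in the inulin group, by 0.52 (adjusted p = 0.0376). It was also the one region of the 14 that still passed without the 60 bp probes, at 0.47 (adjusted p = 0.0330). By limma it passed too with loess (adjusted p = 0.0162), on an equal scale (0.0465) and with input above background (0.0172). It did not pass with both channels above background (0.49, adjusted p = 0.106) or with normexp (0.24, adjusted p = 0.0569). Nor did it pass after quantile normalization (0.38, adjusted p = 0.0531) or in the deposited table (0.11, adjusted p = 0.354). With the median of the probes it did not pass either (0.95, adjusted p = 0.0684 by limma). Regions 29 and 34 did not pass, with differences of 0.41 ± 0.14 (standard error, adjusted p = 0.0996 by limma) and 0.23 ± 0.097 (standard error, adjusted p = 0.157 by limma). Region 29 did pass over the 3 of its 8 probes that were well above background in both channels on all arrays, at 0.46 (adjusted p = 0.0395). Region 34 had every MeDIP value well above background. The lowest Pcdhb differences were -0.10 at region 38 (chr18:37672010-37673679) and -0.054 at region 19 (chr18:37453267-37454924), where the groups overlapped. Region 38 passed as lower in the inulin group without the 60 bp probes (-0.30, adjusted p = 0.0460). Region 18, near the start of the interval, differed by 0.054 with overlapping groups.

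In Pcdhg, 5 regions passed. Region 50 (chr18:37873239-37874938, 9 probes) had -0.22, -0.49 and -0.22 on inulin arrays 1, 2 and 3 and -0.81, -1.33 and -0.90 on obesity arrays 1, 2 and 3. Obesity array 2 was lowest, and the groups did not overlap. The difference was 0.70 ± 0.14 (standard error, adjusted p = 0.0256 by limma). The input channel differed by -0.64 (adjusted p = 0.0377 by limma) and the MeDIP channel by 0.048 (adjusted p = 0.862). Of the region's values, 72.2% in input and 27.8% in MeDIP were well above background. Over the probes with input above background on all arrays the ratio differed by 0.070 (adjusted p = 0.763 by limma). Without the 60 bp probes the difference was -0.15 (not past the threshold). Region 48 (chr18:37852876-37854566) had -0.28, -0.78 and -0.71 across the inulin arrays against -0.97, -1.25 and -1.14 across the obesity arrays. Inulin array 1 stood above the other inulin arrays, and the difference was 0.53 ± 0.13 (standard error, adjusted p = 0.0464 by limma), or 0.060 (adjusted p = 0.762) without the 60 bp probes. Region 45 (chr18:37838813-37840433) had -0.18, -0.49 and -0.48 across the inulin arrays against -0.73, -0.91 and -0.98 across the obesity arrays, again with inulin array 1 highest, and a difference of 0.49 ± 0.10 (standard error, adjusted p = 0.0310 by limma). Regions 51 and 55 were called at higher ratios. Region 51 (chr18:37879658-37880579, 5 probes) had 0.30, 0.42 and 0.32 across the inulin arrays against 0.035, -0.081 and -0.088 across the obesity arrays, a difference of 0.39 ± 0.074 (standard error, adjusted p = 0.0239 by limma). Region 55 (chr18:37900448-37902053) had 0.20, 0.082 and 0.077 across the inulin arrays against -0.36, -0.45 and -0.20 across the obesity arrays, a difference of 0.45 ± 0.086 (standard error, adjusted p = 0.0239 by limma). In region 55 the inulin arrays lay above 0 and the obesity arrays below it, and it differed by 0.17 in MeDIP and -0.26 in input. Over the probes measured in both channels on all arrays the differences were 0.32 at region 45, 0.072 at region 51 and -0.0053 at region 55, and with normexp 0.18, 0.051 and 0.031, with none of these past the threshold. The lowest Pcdhg differences were -0.14 at region 57 (chr18:37910136-37911849) and -0.12 at region 44, neither past the threshold (adjusted p = 0.404 and 0.273 by limma). At region 44 the ratios were 0.14, 0.069 and 0.082 across the inulin arrays against 0.22, 0.25 and 0.18 across the obesity arrays, and each obesity array lay above each inulin array, the reverse of the called regions. Region 49, which had the lowest Pcdhg ratio, did not follow region 27: its arrays lay between -1.49 and -1.28 with a difference of 0.023. Regions 41 and 42 differed by -0.083 and 0.23 with overlapping groups.

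The channels were then compared one at a time, each centred on its array median. Inulin exceeded obesity in MeDIP signal at 53 of 63 member regions (median difference 0.17, all regions 0.066), where 62.4% of the array's regions were above 0. It did so in input signal at 35 of 63, near the array's share of 57.9% (median 0.045, all regions 0.043). By limma 1 member region passed in the MeDIP channel, where 0.253% of the array did, and 3 in the input channel, where 2.14% did. At all 14 regions called on the ratio inulin also exceeded obesity in MeDIP signal, and at 9 of them it was below obesity in input signal. A call for a higher ratio favours both of these directions, so the counts are no separate support for the calls. At 6 of the 14 (array 49.1% of regions) the input difference was larger in size than the MeDIP difference: regions 9, 13, 27, 32, 50 and 55. These 6 include the 5 largest ratio differences among the called regions. The part that the input signal has in these calls was not tested. Fewer than 50% of the MeDIP values were well above background at 5 of the 14 and at 19 of all 63 member regions, against 6.58% of the array.

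At single probes, 55 of 486 tested member probes (11.3%) passed by limma, 42 with a higher and 13 with a lower ratio in the inulin group. Over the array 8.21% of tested probes passed, 5.12% higher and 3.08% lower. Pcdha held 13 higher and 0 lower probes, Pcdhb 11 and 3, Pcdhg 16 and 7, and the probes outside 2 and 3. The direction followed probe length. Probes of 60 bp made up 34.1% of member probes against 13.2% of the array, and they gave 30 of the 42 higher calls, 30 of 167 such probes against 17.4% of 60 bp probes over the array. Probes of 50 to 59 bp gave 9 of 129 (array 7.55%). Probes of 45 to 49 bp gave 3 higher calls of 190 (array 1.83%) and all 13 lower calls (array 3.93%). The median difference of member probes was 0.51 at 60 bp, 0.20 at 50 to 59 bp and -0.072 at 45 to 49 bp. Over all probes of the array it was 0.41, 0.15 and -0.085, so the order was the same outside the cluster. MeDIP signal was well above background in 30.8% of the values of 60 bp member probes and in 84.9% of those of 45 to 49 bp. Across the 63 regions the difference correlated with mean probe length at r = 0.42 and with the input level at r = -0.31. These describe regions that share their arrays. With the 60 bp probes left out, a choice made after the data were seen, 2 of 61 member regions passed (1 higher, 1 lower), against 3.61% of the array, and the median difference was 0.050.

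The count of member probes past the threshold also moved with the processing, and mostly together with the array. It was 91 with normexp (array 15.9%), 80 with loess (12.5%), 24 on an equal scale (3.51%), 20 after quantile normalization (2.70%) and 13 by the deposited values (2.77%). It was 53 of 411 with input above background (10.2%) and 31 of 243 with both channels above it (13.1%). With scan batch as a random block 2 passed (0.159%) and with the replicate number as a block 83 (8.67%). Leaving out inulin arrays 1, 2 and 3 in turn gave 6 (0.553%), 3 (0.421%) and 10 (1.33%). Leaving out the obesity arrays in turn gave 19 (3.05%), 53 (9.07%) and 27 (3.50%). As a share of the member probes tested, 2.65% passed by the deposited values, 12.8% with both channels above background and 18.7% with normexp, below the array's share in the first pair and not far above it in the last, and 17.1% with the replicate block.

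Of the 6 probes named by lowest p, 2 per interval, 5 were dim in the MeDIP channel, with 0 of 6 values well above background, so no difference is given. These are Ch_220697_0061728 and Ch_220697_0061729 in region 13, Ch_220697_0062021 and Ch_220697_0062022 in region 50, and Ch_220697_0061826 in region 25. The input signal was well above background on 1, 0, 4, 0 and 6 of 6 arrays in this order. Only the last has a MeDIP bound against a fully measured input, and for those at 0 or 1 the ratio sets background over background. The sixth, Ch_220697_0061919 of Pcdhb (chr18:37663849-37663896, 48 bp), was well above background in both channels on all arrays. Its ratios were 0.30, 0.33 and 0.40 on the inulin arrays and 1.25, 1.09 and 0.99 on the obesity arrays. Every obesity array was higher, a difference of -0.77 ± 0.12 (standard error, adjusted p = 0.0192 by limma). In all, 16 of the 55 called member probes were measured in both channels on all arrays, 8 higher and 8 lower in the inulin group. Region 43 (chr18:37827510-37829130) in Pcdhg held 4 of these, chosen for mention after their values were seen, and they went both ways. Ch_220697_0061961 and Ch_220697_0061962 were higher in the inulin group by 0.68 and 1.09, while Ch_220697_0061960 and Ch_220697_0061965 had differences of -0.50 and -0.79. The region as a whole differed by 0.21 ± 0.077 (standard error, adjusted p = 0.118 by limma) and did not pass.

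Of the other called probes measured in both channels on all arrays, the one with the largest difference was Ch_220697_0061662 in region 5 of Pcdha, with ratios of -0.25, -0.46 and 0.10 on the inulin arrays and -1.59, -1.78 and -1.10 on the obesity arrays. All inulin arrays were higher, by 1.29 (adjusted p = 0.0231 by limma), although region 5 as a whole did not pass. In region 47 of Pcdhg, probe Ch_220697_0061996 had -0.16, -0.78 and -0.71 on the inulin arrays and -1.24, -1.81 and -2.14 on the obesity arrays, a difference of 1.18 (adjusted p = 0.0404). In regions 61 and 62, at the downstream end of Pcdhg, the probes Ch_220697_0062102 and Ch_220697_0062112 had differences of -0.57 and -0.57 (adjusted p = 0.0273 and 0.0489), with every obesity array above every inulin array. These probes too were picked after their values were seen.

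The intervals were compared by the mean of their regions on each array. The Pcdha mean was -0.15, -0.29 and -0.29 on the inulin arrays and -0.51, -0.62 and -0.61 on the obesity arrays. It was -0.24 ± 0.079 (SD, n = 3) against -0.58 ± 0.058 (SD, n = 3), without overlap. The Pcdhb mean was -0.71, -0.86 and -0.68 on the inulin arrays and -0.87, -1.06 and -0.91 on the obesity arrays, that is -0.75 ± 0.097 (SD, n = 3) against -0.95 ± 0.10 (SD, n = 3). The groups did not overlap, with inulin array 2 just above obesity array 1. The Pcdhg mean was -0.27, -0.45 and -0.43 on the inulin arrays and -0.51, -0.65 and -0.58 on the obesity arrays, that is -0.39 ± 0.099 (SD, n = 3) against -0.58 ± 0.070 (SD, n = 3), again without overlap. The differences were 0.34, 0.20 and 0.20, and 0.22 over all member regions, each with p = 0.1 by the two-sided exact permutation test, which cannot reach 0.05 with 3 against 3 arrays. The difference in Pcdha exceeded that in Pcdhb by 0.14 (exact p = 0.2, adjusted over the 3 contrasts 0.3) and that in Pcdhg by 0.14 (exact p = 0.1, adjusted 0.3). Pcdhb and Pcdhg differed by 0.0038 (exact p = 0.9, adjusted 0.9). With these few arrays none of the contrasts could pass. On an equal scale the differences were 0.25 in Pcdha, 0.010 in Pcdhb and 0.088 in Pcdhg. Without the 60 bp probes they were 0.090, 0.0014 and 0.053. The authors' deposited table, on an unknown scale, gave 0.13, -0.012 and 0.050, so Pcdhb changed sign there.

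The difference over all member regions was set against the rest of the array. Over all other regions the means were -0.12, -0.13 and -0.12 on the inulin arrays and -0.15, -0.20 and -0.18 on the obesity arrays. The difference in the cluster was larger by 0.17 than over all other regions and by 0.18 than over the 496 other regions of chromosome 18 (exact permutation p = 0.1 and adjusted p = 0.2 for both, of 4 such comparisons). These fell to 0.070 and 0.069 on an equal scale, 0.092 and 0.10 with loess, 0.084 and 0.094 with normexp, 0.043 and 0.051 without the 60 bp probes, and 0.042 and 0.045 in the authors' deposited table. Another tandem gene family, the olfactory receptor genes of chromosome 2 from 85 to 90 Mb, had 71 of 227 regions past the threshold, 31.3%. Its mean ratio was -0.75 ± 0.12 (SD, n = 3) against -1.12 ± 0.16 (SD, n = 3). The difference in the protocadherin cluster minus that in the olfactory receptor cluster was -0.15 (exact permutation p = 0.3). Against the histone genes of chromosome 13 from 21 to 24 Mb, with 11 of 115 regions past the threshold (9.57%), it was 0.10 (exact permutation p = 0.3). None of these contrasts could pass, since the exact test with 3 against 3 arrays gives no p below 0.1. No difference was thus shown to be particular to the protocadherins, and this test could not have shown one. Over the array, regions of low ratio had more positive differences. In the lowest of the 5 sets ordered by mean ratio 17.7% of all regions were called higher and 5 of 33 members were called. In the next sets upward these were 6.42% and 5 of 19, 2.61% and 3 of 7, 1.02% and 1 of 2, and 0.266% and 0 of 2. The median difference of members was 0.19, 0.21 and 0.28 in the lowest 3 sets, against 0.21, 0.092 and 0.023 for all regions. Members of the lowest set therefore had a median near that of all its regions, and those of the next sets a higher one, which was not tested.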

How the data were processed

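Each of 6 Agilent arrays, 3 in each group, was read in 2 colours. Per the file headers, the authors extracted them with Feature Extraction 11.0.1.1, with positions in mm9. The processed signals are intensity values, already background-subtracted and dye-normalized per the file headers, and the log10 ratio beside them is red over green. The flags for background, saturation and outliers are other values deposited in the same files. The authors' deposited table holds a score per probe, for which no source here states the log base, scale, centring or making.

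The ratio was log2 of red over green processed signal, without outlier spots (1901 to 4863 per array) and with each array centred on its median over probes that are not controls. Regions were means of 3 or more probes with starts at most 500 bp apart. A feature was tested where both groups had 2 or more values. Tests ran over the whole array with limma 3.58.1 in R 4.3.3, two-sided, with Benjamini-Hochberg adjustment at 0.05, and single values per array by exact permutation tests. The limma test was also run on simulated data, with independent normal noise of the same spread in both groups. The simulation held no scan batch effect and no wider spread on the obesity arrays, so it does not bear on those limits.

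The regions named in each interval are the 2 highest and 2 lowest by ratio, the 2 largest and 2 smallest by difference, and all past the threshold. The probes named are the 2 of lowest p per interval. Regions 1, 2, 35, 40 and 43 were chosen after their values were seen. So were the probes named in regions 1, 2, 5, 43, 47, 61 and 62. The window, lists and tests were chosen with earlier results of these data known. Alternatives were normexp background correction (offset 50), loess, equal scale, quantile normalization, the deposited table, probe medians and filters on dim probes. Others were blocks for scan batch and replicate number, gaps of 300 or 1000 bp, assigning regions to the nearest interval, and leaving out each array. Leaving out the 60 bp probes, and the equal scale for the step within regions, were chosen after the data were seen. No sequence is printed.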

Additional observations from a re-analysis of the deposited data

How the results depend on the processing

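Member regions past the threshold numbered 14, all higher in the inulin group, and member probes 55. Regions numbered 10 with normexp, 9 with loess, 9 with equal scale, 6 with quantile normalization and 2 by the authors' table. They numbered 7 with input above background, 3 with both channels above background and 0 with scan batch as a random block. Gaps of 300 and 1000 bp gave 11 and 14 regions, and the median of the probes gave 6. There were 2 without 60 bp probes, and 0 to 12 leaving out 1 array. Probes numbered 91, 80, 24, 20, 13, 53 and 31 under the first 7 of these settings. With scan batch as a random block 2 probes passed, and 3 to 53 did leaving out 1 array. Of the 14 regions, 6 were past the threshold with normexp, 9 with loess, 9 with equal scale, 6 with quantiles equalised and 2 in the deposited table. With both channels above background 0 of the 10 that kept 3 probes were past it. The 3 that passed there were region 2 at -0.33, region 29 at 0.46 and region 35 at 0.36. The causes were not tested.

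The interval differences stayed above 0 under every alternative, except for Pcdhb at -0.012 in the authors' deposited table. The contrast of Pcdha minus Pcdhg turned to -0.12 with the median of the probes. The contrast of Pcdhb minus Pcdhg, near 0 to begin with, was -0.0074 with normexp, -0.078 with equal scale, -0.061 with quantile normalization, -0.062 in the deposited table, -0.0034 with input above background, -0.0027 with a 1000 bp gap, -0.15 with the median of the probes, -0.052 without 60 bp probes, and -0.054 to 0.040 leaving out 1 array. The cluster minus the olfactory receptors was 0.026 in the deposited table and 0.010 with both channels above background.

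Region differences changed sign as follows. With normexp they were 0.0052 at region 14, -0.060 at region 18, 0.0012 at region 57. With loess they were -0.050 at region 18. On an equal scale they were -0.088 at region 17, -0.0022 at region 18, -0.27 at region 49. With quantiles equalised they were -0.075 at region 17, -0.0014 at region 18, -0.26 at region 49. In the authors' deposited table they were -0.0073 at region 17, -0.065 at region 18, -0.12 at region 49. With input above background they were 0.065 at region 14, -0.12 at region 18. With both channels above background they were -0.17 at region 17, -0.17 at region 18, 0.0032 at region 19, -0.27 at region 42, -0.0053 at region 55. With the median of the probes they were -0.068 at region 5, -0.15 at region 6, -0.20 at region 17, -0.12 at region 18, 0.066 at region 19. Without 60 bp probes they were -0.043 at region 5, -0.040 at region 9, 0.045 at region 14, -0.076 at region 17, -0.10 at region 18, -0.092 at region 49, -0.15 at region 50. Leaving out 1 array gave -0.094 to 0.060 at region 14, -0.043 to 0.068 at region 17, -0.059 to 0.13 at region 18, -0.12 to 0.0043 at region 19, -0.22 to 0.017 at region 41, -0.042 to 0.062 at region 49. Of these, regions 6, 9, 50 and 55 had passed the threshold.

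The groups share replicate numbers. Deviations of same-numbered arrays correlated at -0.14, 0.28 and 0.33, so the numbers were not taken as pairing the samples, and arrays did not all correlate best with their own number. With the replicate number as a block, 21 member regions (2699 regions of the array) and 83 member probes (8.67% of the array's probes) passed, and the interval differences kept their values, with p = 0.25 by exact sign flips, the smallest possible. Of the limits, the 6 arrays and the scan batches bound every value, and dim MeDIP signal bounds the low ratios.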

Other observations

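The window also held 7 probes in 6 shorter runs that entered no region. One of them, Ch_220697_0062075 in the Pcdhg interval (chr18:37914140-37914185, 46 bp), was far brighter than the array's middle in both channels, at 7.04 in input and 6.89 in MeDIP on the centred log2 scale, averaged over 6 arrays. Its MeDIP over input ratios were -0.080, -0.095 and -0.013 on the inulin arrays and -0.39, -0.17 and -0.52 on the obesity arrays. Input was the higher in inulin, by 1.67 (adjusted p = 0.0326 by limma) and MeDIP too, by 1.95 (adjusted p = 0.0201), while the ratio differed by 0.30 (adjusted p = 0.164) and did not pass. The probe was singled out after its values were seen.

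The 2 regions at the low-coordinate edge of the window, before the Pcdha interval, each held a probe measured in both channels on all arrays with a lower ratio in the inulin group. Ch_220697_0061637 in region 1 differed by -0.61 (adjusted p = 0.0320 by limma) and Ch_220697_0061644 in region 2 by -0.69 (adjusted p = 0.0226). Every inulin array lay below every obesity array at both probes. The regions themselves differed by 0.098 and -0.021 and did not pass.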
